A study of Sus scrofa with 15 samples.

Results

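The respiratory chain assembly factors are the helper proteins that put together mitochondrial complexes I to V without being part of the finished enzymes. They were taken from a list of 47 gene names ordered by the complex they serve, and 43 of the 47 had a pig gene ID in the gene name table, against 22516 genes in the gene table of the series. All 14 factors of complex I, 3 of 4 of complex II, all 6 of complex III, 17 of 20 of complex IV and all 3 of complex V were found. *SDHAF3*, *COX20*, *COA1* and *COA6* were not analysed here.

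RNA was measured in pig (*Sus scrofa*) oocytes of 3 groups, with 5 libraries per group and 15 oocytes pooled in each library, from sow ovaries collected at an abattoir. GV oocytes, still arrested with an intact germinal vesicle, were taken from fresh follicles and not cultured. MII oocytes had extruded a first polar body after 44 h of *in vitro* maturation, and ‘damaged’ oocytes had gone through the same culture but lacked a polar body. Cumulus cells were removed with hyaluronidase in all 3 groups, so GV differed from both other groups in culture as well as in stage, and these cannot be told apart.

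Each respiratory complex is built stepwise in the inner mitochondrial membrane. Assembly factors stabilise newly made subunits, deliver haem, copper, flavin or iron-sulphur clusters, and then leave. Oocytes carry a large store of mitochondria and maternal mRNA, and they transcribe little between the GV and the MII stage, so that transcript levels in this period also depend on which stored mRNAs are kept and on their poly(A) tails.

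The libraries held 6.4 to 23.6 M estimated counts each, and GV replicate 3, the shallowest, was left out of the fits, because the study removed 1 GV library for low depth. All 10 measured oocyte markers were detected in every library, with a summed level of 9581 to 16713 TPM (a level per transcript length, relative to the library) in the 5 GV, 2768 to 4559 in the MII and 3262 to 4775 in the ‘damaged’ libraries. The 11 measured markers of cumulus and granulosa cells, the cells that surround the oocyte, summed to 2.63 to 7.62 TPM in GV, 0.973 to 4.53 in MII and 1.1 to 2.35 in ‘damaged’ libraries, and *AMHR2*, *LHCGR*, *PTX3* and *CD44* were at 0 in the 8 gene table columns used. Their part in the results was not tested. No RNA of known amount was added, so a lower level is lower relative to the rest of the library. Fewer molecules per oocyte cannot be told apart from a larger amount of other RNA, nor from a change in poly(A) tails.

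Most assembly factors were lower after maturation, and a few were higher. Of the 43 factors, 41 passed the low-count filter and were tested among 13228 genes with limma-voom on counts scaled by TMM factors, which assume that most genes keep their level. In MII against GV oocytes, 24 of the 41 fell (58.5%) and 6 rose (14.6%) at an FDR under 0.01, where 34.2% of all genes tested fell and 28.2% rose. The median log2(fold change) of the tested factors was -0.99, against -0.17 over all genes. DEGs, with an FDR under 0.01 and a change beyond 2 on the log2 scale, numbered 10 lower and 2 higher factors, beside 17.1% and 4.51% of all genes.

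‘Damaged’ against GV oocytes gave 25 factors that fell and 6 that rose, beside 33.4% and 28.0% of all genes, with a median log2(fold change) of -0.91 for the factors and -0.14 for all genes. The DEGs were again 10 lower and 2 higher factors, beside 16.4% and 4.08% of all genes. Both comparisons share the same 4 GV libraries. In 23 of the 41 factors all 5 MII libraries lay below all 4 GV libraries, and in 7 all lay above, which held for 33.0% and 27.0% of all genes. ‘Damaged’ libraries lay below GV in 24 factors and above in 6, beside 31.8% and 26.6% of all genes. On plain library sizes, without TMM factors, the median of all genes in MII against GV was -1.08 and that of the factors -1.91, so both scalings put the factors below the middle of all genes. The split of calls then moved to 32 factors that fell and 4 that rose, among all genes to 57.5% and 10.9%. Added to those that fell were *NDUFAF1*, *NDUFAF6*, *NDUFAF7*, *FOXRED1*, *SDHAF2*, *LYRM7*, *SCO1* and *COX11*.

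**Figure D1:**
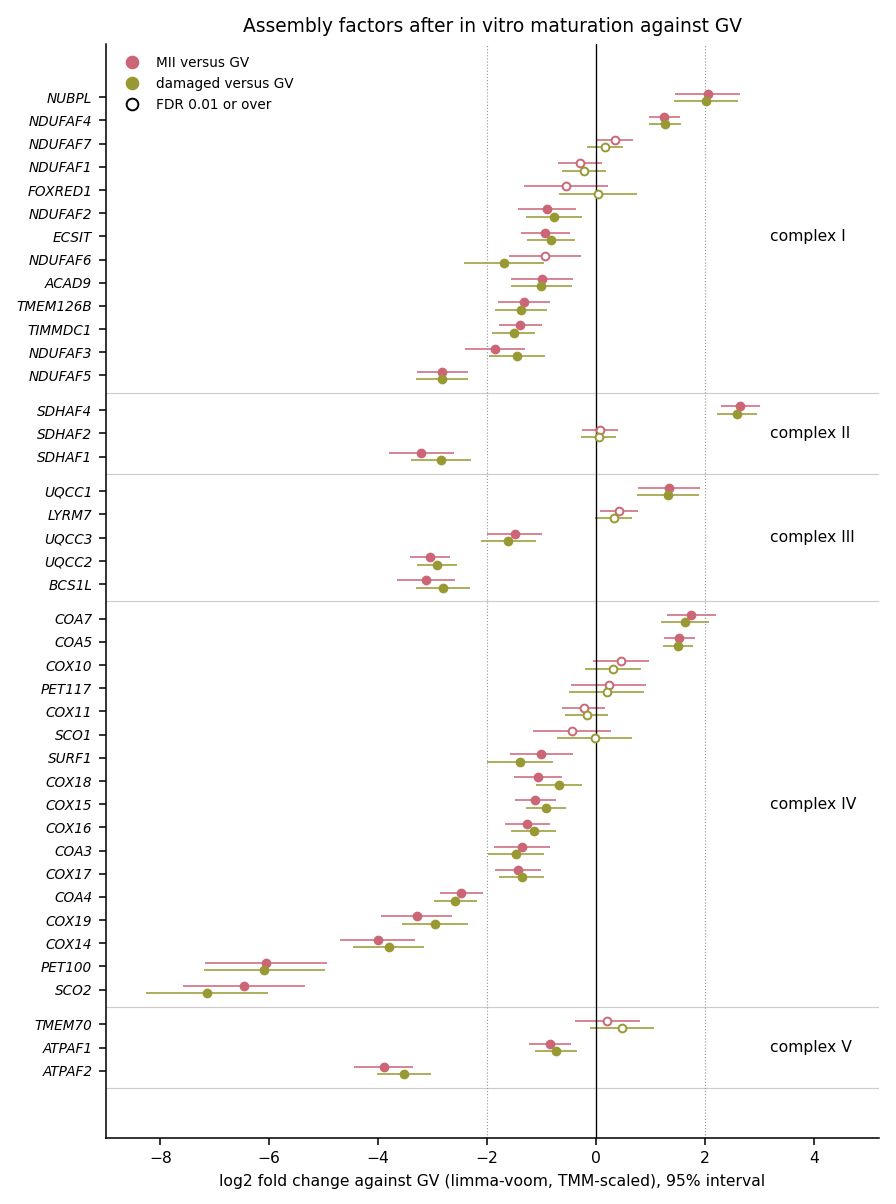
Log2(fold change) of the 41 tested assembly factors in MII and ‘damaged’ against GV oocytes, by complex, with 95% intervals from limma-voom. Filled points have an FDR under 0.01, dotted lines mark 2 and -2, and each complex holds factors on both sides of 0, with SCO2 and PET100 furthest to the left and SDHAF4 furthest to the right.

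Complex I, the NADH dehydrogenase, had 14 factors and 13 were tested. In MII oocytes 7 fell, 2 rose and 4 did not pass the test, beside 34.2% of all genes that fell and 28.2% that rose. *NDUFAF5* (chr17:22480344-22508804, RefSeq, Sscrofa11.1), which hydroxylates a complex I subunit, fell most. Its level, in CPM (counts relative to the TMM-scaled size of the library) by replicate, was 38, 25.6, 34.2 and 21 in the 4 GV libraries, 3.74, 2.61, 4.63, 4.66 and 4.91 in the MII and 3.96, 5.03, 2.94, 4.16 and 4.44 in the ‘damaged’ libraries. All 10 matured libraries lay below all 4 GV libraries, and the means were 29.7 ± 7.77 CPM (SD, n = 4) in GV and 4.11 ± 0.947 CPM (SD, n = 5) in MII. The log2(fold change) was -2.82 (SE 0.227, limma FDR 1.52e-09).

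*NUBPL* (chr7:67785652-68028561), an iron-sulphur protein that supplies clusters to complex I, rose most among the complex I factors in the limma fit of length-scaled counts. It measured 27.4, 11.8, 16.8 and 5.74 CPM in GV, 47.5, 59, 49.9, 55.5 and 60.4 in MII and 66.3, 59.2, 45.3, 46.7 and 51.2 in ‘damaged’ libraries. Every matured library was above every GV library, and the GV mean was 15.4 ± 9.18 CPM (SD, n = 4). The log2(fold change) was 2.05 in MII (SE 0.282, limma FDR 2.17e-06) and 2.01 in ‘damaged’ oocytes, so it sat just past the DEG limit. With edgeR, with DESeq2, with upper quartile factors, on library sizes, under a filter of 10 CPM, or without GV replicate 2 or 5, it was not a DEG in either comparison, and without ‘damaged’ replicate 1 or 2 it was not one in ‘damaged’ oocytes. With Kallisto counts summed per gene, not scaled for length, the log2(fold change) dropped to 1.26 in MII and 1.21 in ‘damaged’ oocytes, below *NDUFAF4*. It still rose under all of these.

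*NDUFAF4* and *NDUFAF3*, which bind each other and act early on the same part of complex I, went in opposite directions. *NDUFAF4* (chr1:64038277-64044824), singled out after its values were seen, measured 203, 148, 166 and 138 CPM in GV, 379, 355, 393, 366 and 443 in MII and 430, 372, 460, 383 and 321 in ‘damaged’ libraries, without overlap. Its log2(fold change) in MII was 1.25 (SE 0.138, limma FDR 1.15e-07), which on library sizes no longer passed the test. *NDUFAF3* fell by 1.85 on the log2 scale in MII and by 1.45 in ‘damaged’ oocytes. With Kallisto counts summed per gene it was a lower DEG in both comparisons.

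The MCIA module, which builds the membrane arm of complex I, is formed around *NDUFAF1*, *ECSIT*, *ACAD9* and *TMEM126B*. *TMEM126B* (chr9:19547664-19555247), the complex I factor with the highest mean TPM, measured 219, 99.1, 154 and 78.9 CPM in GV, 47.6, 47.5, 48.7, 46.4 and 65.3 in MII and 57.2, 50.6, 55.4, 41.2 and 41.6 in ‘damaged’ libraries. These groups did not overlap, and the GV libraries varied more than the matured ones, with an SD of 62.7 CPM (n = 4). Its log2(fold change) was -1.32 (SE 0.228, limma FDR 3.33e-05), and with all 5 GV libraries -0.98 (FDR 0.0109). GV replicate 3, left out of the main fit, had 37.4 CPM when all 15 libraries were scaled, below every other GV library. That is also below the matured CPM values given here, while in TPM it stood at 75.55, above every matured library. *ECSIT* and *ACAD9* fell in MII by 0.93 and 0.99 on the log2 scale. *ACAD9* missed the limit with all 5 GV libraries, without GV replicate 4 (limma FDR 0.0145) or without MII replicate 4 (FDR 0.0135). It also missed the limit among the 8 libraries whose labels agree (FDR 0.0616). With Kallisto counts summed per gene, not scaled for length, *ACAD9* was a lower DEG in both comparisons. *NDUFAF1* (log2 -0.30) did not pass the test, but fell by 0.63 under the 10 CPM filter (FDR 0.00534).

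Of the other complex I factors, *TIMMDC1*, a membrane-arm factor, fell by 1.39 and *NDUFAF2*, which acts late, by 0.90 on the log2 scale in MII. The call of *NDUFAF2* was lost without GV replicate 1 (limma FDR 0.0156), MII replicate 1 (FDR 0.0129) or MII replicate 2 (FDR 0.0151), and among the 8 libraries whose labels agree the difference was -0.30 (FDR 0.4). *NDUFAF7*, a methyltransferase of a complex I subunit, and *FOXRED1* did not pass the test in either comparison. *NDUFAF6* (log2 -0.93 in MII, FDR 0.0122) passed it in ‘damaged’ oocytes, where it fell by 1.69. In MII it passed with all 5 GV libraries (-1.10, FDR 0.00649), with upper quartile factors (-1.04, FDR 0.00608), on library sizes, with both matured groups joined, and without GV replicate 1, ‘damaged’ replicate 2 or ‘damaged’ replicate 4. It did not differ at an FDR under 0.01 between MII and ‘damaged’ oocytes. *NDUFAF8*, a partner of *NDUFAF5*, was under the low-count filter, with at most 8.98 counts in a library.

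Complex II, the succinate dehydrogenase, had 3 tested factors, of which 1 fell and 1 rose in MII, beside 34.2% and 28.2% of all genes. *SDHAF1* (chr6:45374714-45376346), which helps put iron-sulphur clusters into SDHB, measured 5.97, 6.02, 7.32 and 5.89 CPM in GV, 0.53, 0.313, 0.921, 0.965 and 0.643 in MII and 0.641, 0.779, 1.18, 0.751 and 0.895 in ‘damaged’ libraries. Every matured library lay below every GV library, the means were 9.34 times apart in MII, and the log2(fold change) in MII was -3.21 (SE 0.286, limma FDR 6.13e-09). *SDHAF4*, which binds the flavin-loaded SDHA and was the most abundant factor of this complex by TPM, rose from 11.9, 8.05, 8.04 and 6.38 CPM in GV to 48, 50.4, 58.5, 51.1 and 53.9 in MII and 56.8, 50.3, 58.5, 44.7 and 43.2 in ‘damaged’ libraries. That made it the largest rise of all factors, with a log2(fold change) of 2.65 in MII (SE 0.173, limma FDR 9.34e-11) and 2.59 in ‘damaged’ oocytes, and on library sizes it rose but was not a DEG. *SDHAF2*, needed to attach the flavin to SDHA, did not pass the test, with a log2 difference of 0.07 and a 95% interval of -0.25 to 0.40 in MII.

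Complex III, the cytochrome bc1 complex, had 5 tested factors, of which 3 fell and 1 rose in MII, beside 34.2% and 28.2% of all genes. *BCS1L* (chr15:120707770-120711794), the ATPase that moves the Rieske protein across the inner membrane, measured 14.9, 12, 13.3 and 14.7 CPM in GV, 0.937, 1.2, 1.83, 1.73 and 2.09 in MII and 2.41, 2.78, 1.44, 1.2 and 2.45 in ‘damaged’ libraries. Its level was 8.81 times lower in MII by the means, and the log2(fold change) was -3.12 (SE 0.255, limma FDR 1.80e-09). *LYRM7*, the chaperone that holds the Rieske protein before *BCS1L* acts and the most abundant factor of complex III by TPM, measured 230, 184, 209 and 117 CPM in GV, 240, 242, 247, 234 and 234 in MII and 228, 270, 246, 204 and 181 in ‘damaged’ libraries.

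The MII libraries lay close together, with an SD of 5.52 CPM (n = 5), and just above the GV libraries, while ‘damaged’ libraries overlapped with GV. The MII difference did not pass the test (log2 0.42, limma FDR 0.0313), but the call turned with the processing. *LYRM7* rose with Kallisto counts summed per gene, by a log2(fold change) of 0.84 in MII (FDR 0.000181) and 0.65 in ‘damaged’ oocytes (FDR 0.00209), and in MII without GV replicate 1 (0.55, FDR 0.00559). On library sizes it fell, with -0.50 in MII (FDR 0.00268) and -0.55 in ‘damaged’ oocytes (FDR 0.00124). *LYRM7* overlaps *CDC42SE2* in RefSeq, as *NDUFAF1*, *NDUFAF7*, *ACAD9*, *TIMMDC1*, *SDHAF2*, *PET117* and *ATPAF2* each overlap another gene. These overlaps are of whole gene positions, introns included. Whether exons overlap was not tested. Without strand in the reads, reads from any shared exon could not be told apart.

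*UQCC1* and *UQCC2* bind each other and the newly made cytochrome b, the subunit of complex III coded in mitochondrial DNA. *UQCC1* measured 5.47, 2.26, 3.41 and 2.07 CPM in GV, 9.87, 7.58, 7.12, 7.61 and 6.94 in MII and 12.4, 8.52, 6.74, 6.04 and 6.09 in ‘damaged’ libraries, and rose by a log2(fold change) of 1.34 in MII (SE 0.274, limma FDR 0.000212). On library sizes this rise did not pass the test, and with Kallisto counts summed per gene it was 0.72. *UQCC2*, described after its values were seen, measured 91.9, 98.5, 103 and 73.3 CPM in GV, 12.4, 10.2, 10.2, 11.6 and 10.7 in MII and 12.2, 13.3, 7.82, 16.5 and 11.8 in ‘damaged’ libraries.

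*UQCC2* was 8.31 times lower in MII by the means, with a log2(fold change) of -3.04 (SE 0.178, limma FDR 2.43e-11). *UQCC3*, which also acts on cytochrome b, fell by 1.5 on the log2 scale. *TTC19*, which clears fragments of the Rieske protein, was under the low-count filter, with at most 17.8 counts in a library.

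Complex IV, cytochrome c oxidase, has the most assembly factors, and 11 of its 17 tested members fell in MII while 2 rose. Of all genes, 34.2% fell and 28.2% rose. *COX14*, which binds newly made COX1 together with *COA3*, had the highest mean TPM of all assembly factors. Its level was 15.5, 12.5, 13.1 and 9.47 CPM in GV, 0.937, 0.751, 0.229, 1.05 and 1.04 in MII and 1.2, 0.601, 0.961, 0.697 and 0.928 in ‘damaged’ libraries. It fell by 4.01 on the log2 scale in MII (SE 0.328, limma FDR 1.86e-09), and *COA3* by 1.36. The high TPM of *COX14* rests on its annotated transcript of 174 bases, which left Kallisto an effective length of 10 bases, so its level against other genes is uncertain.

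*PET100* (chr2:71519395-71520820), a small inner membrane factor, fell nearly out of detection and is described after its values were seen. It measured 40.5, 31.1, 32.1 and 24.9 CPM in GV, 0.0907, 0.364, 1.55, 0.471 and 0.442 in MII and 0.292, 0.218, 3.37, 0.245 and 0.193 in ‘damaged’ libraries. Replicate 3 was the highest of the matured libraries in both groups, and still lay far below the lowest GV library. The log2(fold change) was -6.06 in MII (SE 0.533, limma FDR 5.06e-09).

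*SCO2* (chr5:220801-222678), which with *SCO1* carries copper to the CuA site of COX2, fell to the edge of detection, as *PET100* did. It measured 4.74, 3.08, 6.25 and 5.9 CPM in GV, 0, 0, 0, 0.212 and 0 in MII and 0, 0, 0, 0 and 0 in ‘damaged’ libraries. The 4 GV libraries held 425.5 counts and the 5 MII libraries 3.99, all of them in replicate 4, and the ‘damaged’ libraries none, which puts ‘damaged’ oocytes at least 24.1-fold below GV for a floor of 3 counts per library. The limma FDR was 2.22e-09 in MII and 5.94e-10 in ‘damaged’ oocytes. *SCO1* did not pass the test, with a log2 difference of -0.44 in MII and -0.03 in ‘damaged’ oocytes. In MII it fell by 1.18 with Kallisto counts summed per gene (limma FDR 0.00135) and by 1.35 on library sizes (FDR 0.00255).

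The other copper factors differed among themselves. *COX17*, which hands copper to *SCO1* and *SCO2*, fell by 1.43, and *COX19*, a small protein of the intermembrane space, by 3.29 on the log2 scale in MII, while *COX11*, which serves the CuB site, did not pass the test (log2 -0.22). Among the haem factors, *COX15*, the haem A synthase, fell by 1.11 and *SURF1* by 1.00, and *COX10*, the haem O synthase, did not pass the test (log2 0.46). *SURF1* missed the limit without GV replicate 2 (limma FDR 0.0109), GV replicate 4 (FDR 0.0112) or MII replicate 3 (FDR 0.0109), and *SURF1*, *COX15* and *COX18* also among the 8 libraries whose labels agree (FDR 0.0159, 0.0125 and 0.0397). *COA4* fell by 2.47, *COX16* by 1.26 and *COX18*, which exports the tail of COX2, by 1.06, whereas *PET117* (log2 0.23) did not pass the test.

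*COA5* and *COA7* were the 2 complex IV factors that rose. *COA7* measured 44.9, 18.7, 34.7 and 19.4 CPM in GV, 78.2, 91.9, 91.4, 84.5 and 119 in MII and 86.1, 80.3, 95.9, 90.2 and 73 in ‘damaged’ libraries, with a log2(fold change) of 1.75 in MII (SE 0.212, limma FDR 4.10e-07). In the library left out, GV replicate 3, it stood at 3.45 CPM, below the other 4. *COA5*, added after its values were seen, measured 471, 417, 424 and 301 CPM in GV, 1173, 1037, 1160, 1162 and 1212 in MII and 1250, 1123, 1242, 1114 and 932 in ‘damaged’ libraries, a rise of 1.53 on the log2 scale in MII (SE 0.134, limma FDR 4.81e-09).

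Complex V, the ATP synthase, had 3 factors. *ATPAF2* (chr12:60617642-60633210), the chaperone of the alpha subunit of F1, measured 20.7, 15.8, 16.8 and 19.3 CPM in GV, 0.731, 1.01, 1.03, 1.16 and 2.19 in MII and 2.03, 1.17, 1.21, 1.48 and 2.04 in ‘damaged’ libraries, a fall of 3.89 on the log2 scale in MII (SE 0.258, limma FDR 1.10e-10). *ATPAF1*, the chaperone of the beta subunit, fell by 0.84. *TMEM70* (chr4:61958605-61966041), which helps build the ring of c subunits and was the most abundant of the 3 by TPM, measured 108, 103, 68 and 74.4 CPM in GV, 70.6, 64.6, 136, 86.4 and 182 in MII and 141, 80.3, 195, 93.1 and 122 in ‘damaged’ libraries. Its groups overlapped, and neither difference passed the test (log2 0.21 in MII, 95% interval -0.38 to 0.80).

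**Figure D2:**
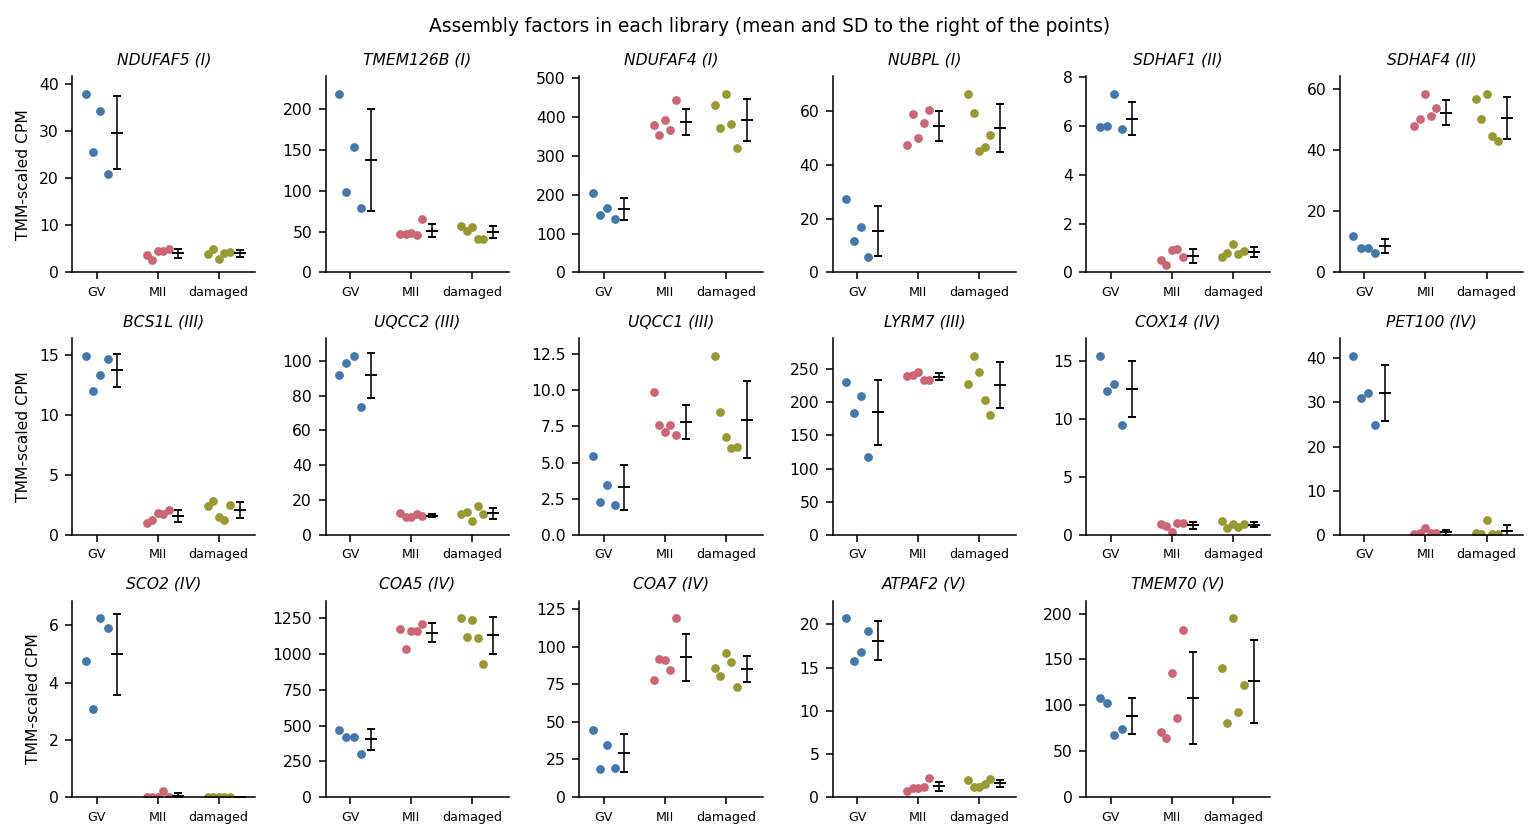
TMM-scaled CPM of 17 assembly factors in each of the 14 libraries of the fits, with the complex in brackets. Points are libraries in replicate order, and bars beside them give the mean and SD, with every axis starting at 0. NDUFAF5, SDHAF1, BCS1L, UQCC2, COX14, PET100, SCO2 and ATPAF2 fall to a small part of their GV level in all matured libraries, while TMEM70 and LYRM7 overlap between GV and ‘damaged’ oocytes.

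Between MII and ‘damaged’ oocytes, which differ in the polar body alone by their labels, no assembly factor passed the test. None of the 41 had an FDR under 0.01 with limma, edgeR or DESeq2, none had an unadjusted p under 0.05 with any of these, and over all 13228 genes the limma count was also 0 (0%), with 194 at an unadjusted p under 0.05. The differences ran from -0.59 (*FOXRED1*) to 0.76 (*NDUFAF6*) on the log2 scale. The 95% intervals all included 0, and in 31 of 41 factors they lay within 1 log2 unit of 0, reaching to either side by between 0.26 (*COA5*) and 1.5 (*SCO2*). Differences under that size could not be seen in these libraries, and a call at an FDR under 0.01 would need still larger ones. The interval of *SCO2* rests on libraries with almost no counts.

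Levels of different genes were compared in TPM, which allows for transcript length. In GV oocytes the order began with *COX14* at 2872 ± 180 TPM and *COX17* at 1518 ± 136 TPM, followed by *COA5* at 553 ± 47, *PET100* at 424 ± 20.2, *LYRM7* at 331 ± 51.8 and *COA4* at 317 ± 13.4 TPM (SD, n = 4). *LYRM7* and *COA4* differed by less than their spread. In MII oocytes *COA5* led with 773 ± 73.1 TPM, then came *COX17* at 279 ± 80.6, *LYRM7* at 212 ± 16 and *COA7* at 183 ± 34.1 TPM (SD, n = 5), and *LYRM7* and *COA7* again differed by less than their spread. ‘Damaged’ oocytes had the same first 5 factors as MII oocytes, with *COA5* at 783 ± 50.7 TPM (SD, n = 5).

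The make-up of the assembly factor RNA therefore differed between GV and matured oocytes in a way that does not rest on the scaling between libraries. All 43 factors summed to 6912 to 8024 TPM in the 4 GV libraries, 1766 to 2460 in MII and 2030 to 2446 in ‘damaged’ libraries. Unlike the shares, this sum is a level relative to the rest of each library. *COX14* made up 36.3 to 38.4% of this sum in GV and 1.20 to 5.67% in MII libraries, and *COA5* 6.65 to 7.70% in GV and 33.3 to 38.8% in MII libraries. Because *COX14*, *COX17* and *NDUFAF8* have a mean transcript length under 300 bases, the shares were also taken without these 3. *COA5* then held 17.1% in GV, 44.5% in MII and 44.1% in ‘damaged’ libraries on average. Without these 3 the sum differed less, with 2941 to 3412 TPM in GV, 1512 to 1973 in MII and 1683 to 2025 in ‘damaged’ libraries. *PET100* was kept, although 2 of its 3 transcripts, of 295 and 210 bases, are also short, so its TPM carries the same limit. *LYRM7* was kept too, although a 348-base transcript, with an effective length of 149 bases, held most of its TPM. The share of that transcript was 76.1 to 86.0% in GV and 68.1 to 79.6% in MII libraries.

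**Figure D3:**
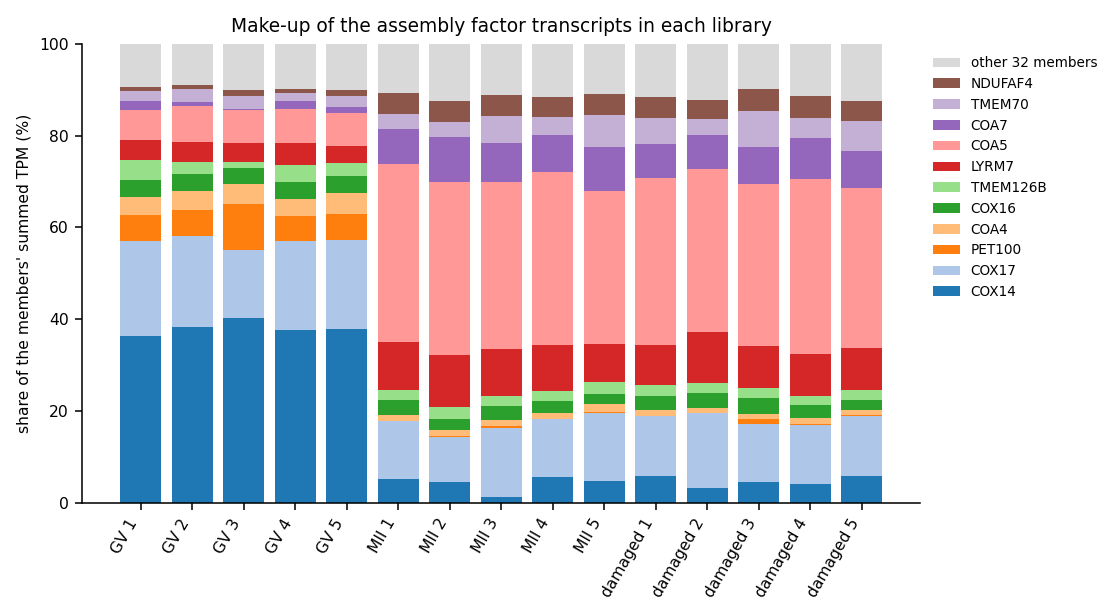
Share of single factors in the summed TPM of all 43 assembly factors, in percent, in each of the 15 libraries, with GV replicate 3 included. COX14 and COX17 fill over 50% of every GV bar, and COA5 takes the largest part of every MII and ‘damaged’ bar, between 33.3 and 38.8%.

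A ratio of 2 genes within 1 library is also free of the scaling, so it was taken for 5 pairs that act on the same step or enzyme. The pairs were chosen after their values were seen, and are given without a test. The ratio of *UQCC2* to *UQCC1* TPM was 5.96 to 15.5 in the GV libraries and 0.446 to 0.545 in the MII libraries. By TPM, the more abundant partner thus changed from *UQCC2* to *UQCC1*. That change depends on transcript length, as in CPM *UQCC2* stayed above *UQCC1* in every MII library. A 758-base transcript held 87.9% of the *UQCC1* TPM in MII on average. In ‘damaged’ libraries the TPM ratio of *UQCC2* to *UQCC1* was 0.349 to 0.970. The ratio of *ATPAF2* to *ATPAF1* went from 4.30 to 7.23 in GV to 0.324 to 1.39 in MII libraries.

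*BCS1L* to *LYRM7* stood at 0.0635 to 0.125 in GV and 0.00390 to 0.00891 in MII, *NDUFAF3* to *NDUFAF4* at 0.147 to 0.215 in GV and 0.0134 to 0.0307 in MII, and *COX14* to *COA3* at 52.8 to 88.7 in GV and 5.79 to 13.0 in MII libraries. In all 5 pairs the GV libraries lay above all MII and all ‘damaged’ libraries. The size of the ratios with *LYRM7* and *COX14* carries the limit of their short transcripts. On the log2 scale the mean ratio in MII minus that in GV ran from -2.77 (*COX14* to *COA3*) to -4.39 (*UQCC2* to *UQCC1*).

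**Figure D4:**
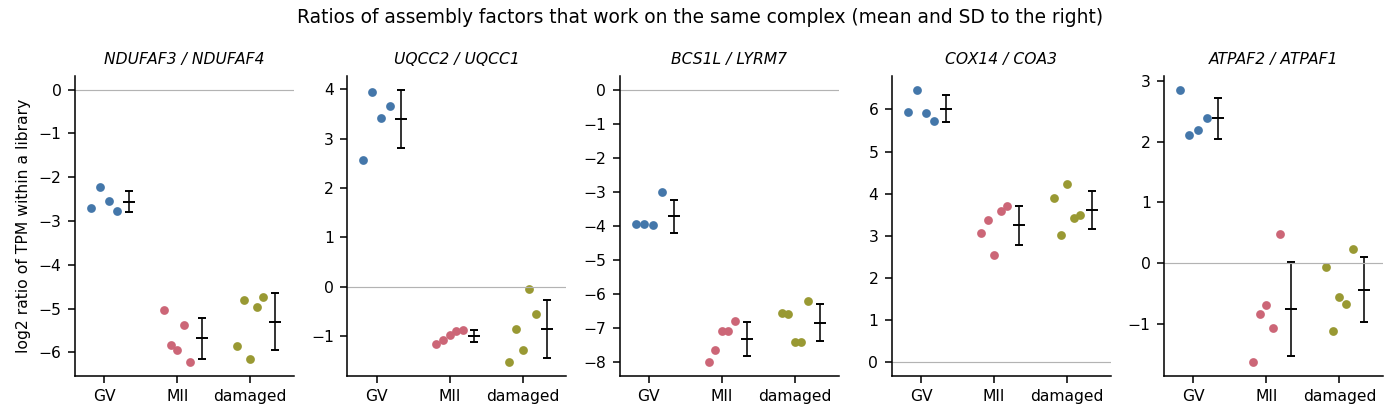
Log2 ratio of TPM of 2 assembly factors within each of the 14 libraries of the fits, for 5 pairs, with the mean and SD beside the points and a line at 0 where the axis reaches it. The GV points lie above all MII and ‘damaged’ points in each pair, and UQCC2 to UQCC1 moves from above to below 0.

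The subunits that these factors assemble were counted from lists of the nuclear-coded subunits. Of 67 subunits found and tested, 41 fell and 11 rose in MII, beside 34.2% and 28.2% of all genes, with 22 lower and 0 higher DEGs, beside 17.1% and 4.51%, and a median log2(fold change) of -1.08, close to the -0.99 of the assembly factors. By complex, 23 of 32 subunits of complex I fell (from *NDUFA7* at -5.57 to *NDUFB1* at 1.35), 1 of 4 of complex II (*SDHA* at -1.06, against *SDHC* at 1.76), 4 of 8 of complex III (*UQCRC1* at -2.27), 6 of 10 of complex IV (*COX7A2* at -2.44) and 7 of 13 of complex V (*ATP5MC1* at -4.55). For complex II the medians were 0.18 for its subunits and 0.07 for its assembly factors, each from 4 genes or fewer. A further 18 tested assembly genes outside the 47 had 10 that fell and 6 that rose, to be read against the same shares, with *TMEM186*, a partner of the MCIA module, at -2.69 and *FMC1*, a factor of complex V, at 1.93.

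Assembly factors with more than 1 annotated transcript were examined for isoform usage, the share of the gene's TPM that each transcript holds. Of 11 factors tested, 4 changed in MII (*ACAD9*, *NUBPL*, *SCO1* and *SDHAF2*) and 6 in ‘damaged’ oocytes (the same 4 with *NDUFAF3* and *ECSIT*), by a limma diffSplice FDR under 0.01 and a mean share that moved by over 10 points. Among all 4866 genes tested this held for 41.3% and 40.8%. Whether *NDUFAF3* and *ECSIT* differed between MII and ‘damaged’ oocytes was not tested.

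*SCO1* had the largest move of a share in MII, while its total did not pass the test on length-scaled counts but fell by 1.18 on the log2 scale on Kallisto counts summed per gene (limma FDR 0.00135). Its transcript of 1383 bases (ENSSSCT00000019602.5) held 24.1, 7.25, 15.5 and 3.32% in the GV libraries and 54.4, 86.0, 62.0, 73.7 and 81.5% in the MII libraries. Its other transcript, of 3450 bases, held the rest, and the mean share of the shorter one was 12.5% in GV, 71.5% in MII (diffSplice FDR 0.000195) and 71.6% in ‘damaged’ oocytes. *SCO1* was low throughout, with a mean of 3.40 TPM in GV and at most 81.1 counts in a library.

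*NUBPL*, which rose in total, had its 996-base transcript at 57.9, 34.9, 59.8 and 0% in GV and at 81.4, 85.8, 80.7, 87.8 and 80.3% in MII libraries (diffSplice FDR 0.000561). The 2647-base transcript went from a mean of 54.9 to 15.5%. In *ACAD9* the 6981-base transcript held 16.6 to 55.8% in GV and 0 to 3.29% in MII libraries, while the 1244-base transcript went from a mean of 50.3 to 87.1% (diffSplice FDR 0.000933).

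*SDHAF2*, whose total did not pass the test, had its 1630-base transcript at 51.2 to 67.8% in GV and 83.1 to 95.5% in MII libraries (diffSplice FDR 0.000162). In *NDUFAF3* the 1841-base transcript held 82.6% in GV and 26.8% in ‘damaged’ oocytes on average (diffSplice FDR 0.000271). The MII libraries ran from 22.8 to 93.9% and did not pass the test (FDR 0.016). In *ECSIT* the 1591-base transcript held 0, 21.1, 0 and 5.55% in GV and 19.9, 12.7, 21.1, 53.3 and 47.5% in ‘damaged’ libraries. These groups overlapped, with means of 6.66% and 30.9% (diffSplice FDR 0.00277). Both genes were low after maturation, with means in MII and ‘damaged’ oocytes of 1.90 and 2.64 TPM for *NDUFAF3* and 4.31 and 4.76 TPM for *ECSIT*.

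**Figure D5:**
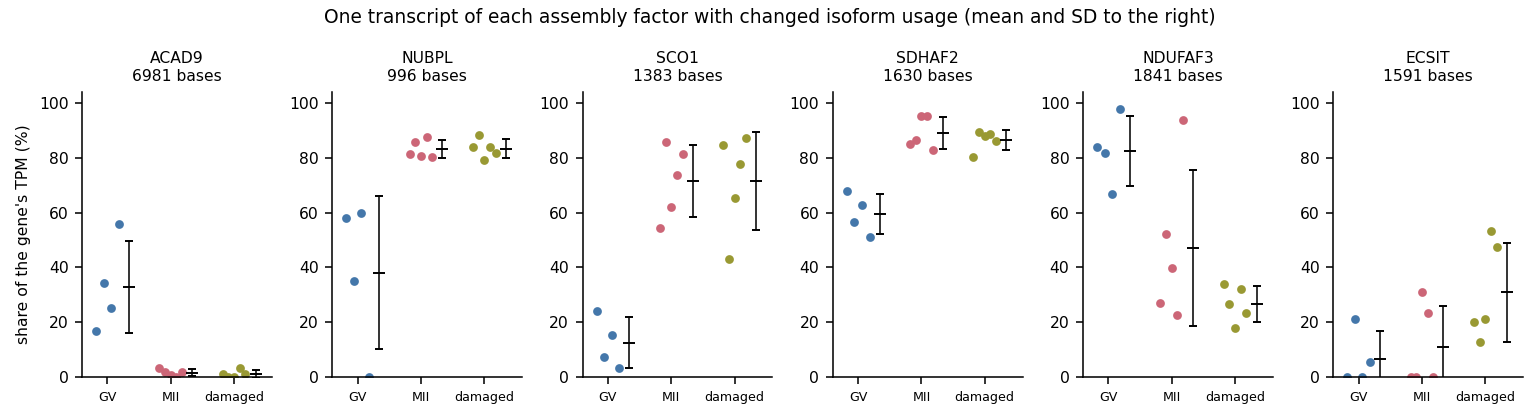
Share of one transcript in the gene's TPM, in percent, for the 6 assembly factors with changed isoform usage, in each of the 14 libraries, with the mean and SD beside the points. ACAD9, NUBPL, SCO1 and SDHAF2 separate GV from all matured libraries, while NDUFAF3 overlaps between GV and MII, and ECSIT between GV and both other groups.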

How the data were processed

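Only the pig libraries were used. The authors trimmed reads with AfterQC and quantified transcripts with Kallisto 0.43 from the Ensembl cDNA of Sscrofa11.1; the deposited transcript files hold estimated counts, not normalized across libraries, and TPM made by the authors with Kallisto. The deposited gene table holds estimated counts per gene made by the authors with tximport (lengthScaledTPM). Of its 15 columns, 8 had the total of the library they name; the other 7 had the total of another library and were not used. The transcripts of 18943 genes were found by matching transcript sums to those 8 columns, and counts per gene were then made for each library from its transcript file, whose labels set the groups. Which set of labels is right was not tested, and the comparison of MII with ‘damaged’ oocytes rests on it.

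Genes were tested with limma 3.58.1 (voom with TMM factors and filterByExpr of edgeR 4.0.16, R 4.3.3) in 1 fit of 14 libraries, with FDR by Benjamini-Hochberg over all genes tested. The study tested isoform usage with DEXSeq, which was not used here, and diffSplice of limma was run instead on transcripts that held over 5% of their gene. DESeq2 1.42.0 and edgeR served as alternatives, with other scalings, filters and library sets. In simulated counts with 200 changed genes, as many up as down, limma, edgeR and DESeq2 each found all 200, with 0 false calls. With the transcripts of 200 genes swapped, diffSplice found 199, with 4 false genes in MII and 2 in ‘damaged’ against GV. In the real data far more genes changed, and more DEGs were lower than higher, so these runs cannot check the scaling or error rates here. Pairs of libraries of 1 group in the fit varied by 15.2 to 102 times the variance that counting error gives. With GV replicate 3, which was left out, the highest was 209. Each library is 1 pool of 15 oocytes, so p-values measure the spread between pools.

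Members and lists were chosen with earlier results of these data known. Library values are given for the largest rise, the largest fall and the most abundant factor of each complex, and for 4 factors added later. RefSeq gave positions for 27 factors, of which 8 overlap another gene.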

Additional observations from a re-analysis of the deposited data

Results flagged for a closer look

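In 17 factors and 3 groups, 51 sets of libraries in all, 6 held a library far from the others of its group. How often chance gives such a set was not tested, and *SCO2* and *PET100* were near the floor in matured libraries. *PET100* stood at 3.37 CPM in ‘damaged’ replicate 3, against 0.193 to 0.292 CPM in the other 4, and at 1.55 CPM in MII replicate 3, against 0.0907 to 0.471 CPM. *SCO2* had 0.212 CPM in MII replicate 4 and 0 in the other 4 MII libraries. *TMEM126B* stood at 65.3 CPM in MII replicate 5, against 46.4 to 48.7 CPM. *UQCC1* stood at 9.87 CPM in MII replicate 1, against 6.94 to 7.61 CPM. *SDHAF1* stood at 7.32 CPM in GV replicate 4, against 5.89 to 6.02 CPM.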

How the results depend on the processing

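On library sizes without TMM factors, lower DEGs among the assembly factors numbered 18 in MII and 19 in ‘damaged’ against GV, and higher DEGs 0 in both. Of all 13228 genes, 3888 were lower and 48 higher DEGs in MII, and 3672 and 44 in ‘damaged’ oocytes. With Kallisto counts summed per gene, 12 factors were lower DEGs in both comparisons, beside 2223 and 2137 of all 13231 genes. Higher DEGs among the factors numbered 1 in both comparisons with upper quartile factors, edgeR, DESeq2, a filter of 10 CPM and Kallisto counts summed per gene. In that order, all genes gave 461, 561, 634, 196 and 580 higher DEGs in MII, and 411, 509, 560, 172 and 519 in ‘damaged’ oocytes. The 10 CPM filter left 7464 genes. When 1 library was left out, higher DEGs among the factors ranged from 1 to 3 in MII and from 1 to 2 in ‘damaged’ oocytes, with *NUBPL* lost or *COA7* gained. All genes then gave 489 to 750 higher DEGs in MII and 439 to 705 in ‘damaged’ oocytes, of 13190 to 13539 genes tested. *LYRM7* turned to -0.50 in MII and -0.55 in ‘damaged’ oocytes on library sizes, and *TMEM70* to -0.70 and -0.39. *TMEM70* was also at -0.12 in MII under the 10 CPM filter and ranged from -0.011 to 0.37 when 1 library was left out. The cause was not tested. No factor called in the main fit changed direction under any setting run. *LYRM7*, not called there, was called as a rise on Kallisto counts summed per gene and as a fall on library sizes. Among the 8 libraries whose labels agree, 20 of 42 factors tested fell and 6 rose in MII, beside 27.15% and 21.89% of all genes.

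With a replicate block, 24 factors fell and 6 rose in MII, beside 34.55% and 28.61% of all genes. In ‘damaged’ oocytes 25 fell and 6 rose, beside 33.54% and 28.71%. Both comparisons gave 10 lower and 2 higher DEGs, beside 2259 and 601 of all 13228 genes in MII and 2150 and 552 in ‘damaged’ oocytes. Isoform usage changed in 5 and 6 factors, to be read against the 41.3% and 40.8% of all genes found without the block. Between MII and ‘damaged’ oocytes, 0 of 41 factors and 0 of 13228 genes passed with the block. The smallest limma FDR over all genes was 0.0236. The study describes 5 independent collections, and whether the replicate numbers stand for them was not tested. Same-numbered libraries correlated at -0.10 to 0.32 after removal of group means, which cannot show whether they are pairs. The main fit used no pairs, and the block changed no call of these factors on gene level. Low counts limit *SCO1*, *PET117*, *FOXRED1* and *NDUFAF6*. In matured libraries they also limit *SCO2*, *PET100*, *COX14*, *SDHAF1*, *COX19*, *BCS1L*, *NDUFAF3* and *ATPAF2*, with 2.95 to 19.8 counts for *COX14* in MII libraries. The isoform shares of *ACAD9*, *ECSIT* and *NDUFAF3* carry the same limit. Short annotated transcripts limit the TPM of *COX14*, *COX17*, *PET100* and *LYRM7*.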
